A study of Homo sapiens with 6 samples.

Results

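Inflammasome and pyroptosis genes were examined in CAL-27 cells with and without knockdown of XBP-1s. The set held 10 genes of the 19726 that had at least 1 probe with a gene symbol on the array. They were the sensors NLRP1, NLRP3 and CARD8, the protease DPP9, the adaptor PYCARD, the inflammatory caspases CASP1, CASP4 and CASP5, and the gasdermins GSDMD and GSDME. The members were given as a list of symbols, and every non-control probe whose RefSeq accession mapped to one of them was kept. This gave 13 probes, with 2 each for NLRP1, NLRP3 and DPP9 and 1 for each of the other 7 genes.

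CAL-27 is an established human line derived from tongue squamous cell carcinoma. The shXBP-1s group (n = 3) was stably transduced with an shRNA against XBP-1s, the spliced transcription factor form of XBP1 made in the unfolded protein response, and the shCtrl group (n = 3) carried a negative control shRNA. No drug or time course was named, no inflammasome stimulus was among the labels, and only RNA was measured. How many shRNAs or clones were used is not given in the sources used here, and the labels name no separate cultures. The methods refer to figure legends for the number of independent experiments, and the legend of this comparison gives only the group size. If the samples of a group share a culture, p-values measure only the spread between these samples, which may be technical.

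Each sample was hybridised to 1 Agilent 1-colour array, and levels are given as log2 signal relative to the 75th percentile of that array, so that 0 is the level of a probe at that percentile. The XBP1 probe was at 1.88, 1.85 and 1.87 in shCtrl and at -0.50, -0.54 and -0.52 in shXBP-1s, and the log2 fold change was -2.39 (SE 0.04, limma adjusted p = 2.81e-07). The labels therefore matched the targeted gene on all 6 arrays, although which splice form this probe reads was not tested. shCtrl replicates 2 and 3 shared 1 scan date, and shCtrl replicate 1 shared the other with all 3 shXBP-1s arrays. Arrays with the same scan date are taken below as 1 slide, since no slide name was read. Values set against shCtrl replicate 1 alone are given below where they change the call of a member, but not for every pathway gene. The 6 squamous epithelial markers KRT5, KRT14, KRT17, TP63, EPCAM and CDH1 were well above background on all 6 arrays. Of the 6 leukocyte markers looked at, each also had at least 1 probe well above background on all 6 arrays, among them CD14, which fell by 0.84, and CSF1R, which rose by 1.04 on the log2 scale. Their part in the results was not tested.

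Inflammasomes are cytosolic complexes in which a sensor, often through the adaptor ASC encoded by PYCARD, activates caspase 1. Caspase 1 matures interleukin 1β and interleukin 18 and cuts gasdermin D, whose released fragment opens pores in the plasma membrane and causes the lytic death called pyroptosis. Caspases 4 and 5 bind bacterial lipopolysaccharide directly and cut gasdermin D in the noncanonical pathway. Epithelial cells such as keratinocytes use NLRP1 as a main sensor, and DPP9 binds NLRP1 and CARD8 and holds them inactive.

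The upstream sequences of 3 of the genes that rose are shown because XBP-1s is known to bind elements with an ACGT core. The windows span the annotated start over 300 bases, mostly upstream of it, are written 5′ to 3′ on the gene's strand, and come from RefSeq on GRCh38.p14. Capitals mark ACGTG, read on either strand, so that CACGT is its reverse complement.

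CASP4, chr11:104968525-104968824, minus strand: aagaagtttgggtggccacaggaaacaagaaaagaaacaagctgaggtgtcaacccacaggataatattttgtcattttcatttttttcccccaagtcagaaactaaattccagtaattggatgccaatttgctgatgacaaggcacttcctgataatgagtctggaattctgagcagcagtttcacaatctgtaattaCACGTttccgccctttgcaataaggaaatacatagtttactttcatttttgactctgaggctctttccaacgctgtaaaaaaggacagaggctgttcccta

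CASP5, chr11:105023119-105023418, minus strand: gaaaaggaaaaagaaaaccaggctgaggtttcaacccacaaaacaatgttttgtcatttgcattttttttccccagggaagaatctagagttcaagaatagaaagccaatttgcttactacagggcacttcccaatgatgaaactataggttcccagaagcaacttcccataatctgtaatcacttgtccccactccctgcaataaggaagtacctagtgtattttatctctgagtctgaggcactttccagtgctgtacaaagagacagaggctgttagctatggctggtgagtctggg

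DPP9, chr19:4723793-4724092, minus strand: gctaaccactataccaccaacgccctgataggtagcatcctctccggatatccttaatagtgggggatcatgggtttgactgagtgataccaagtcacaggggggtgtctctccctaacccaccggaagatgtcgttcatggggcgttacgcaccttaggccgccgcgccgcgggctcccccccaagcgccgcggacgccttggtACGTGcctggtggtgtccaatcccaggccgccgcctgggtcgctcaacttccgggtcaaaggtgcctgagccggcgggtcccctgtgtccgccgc

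The reference table held 15 such windows for 7 of the 10 genes and none was printed for NLRP1, CASP1 or GSDMD. ACGTG occurred in 2 of the 15 windows, at -51 from the start in CASP4 and at -45 in DPP9, and the window of CASP5 held none. DPP9 had several windows, and the window shown was the only DPP9 window with ACGTG. The windows of NLRP3, CARD8, PYCARD and GSDME, which are not shown, held none. Of all 35116 windows in the table, 21.4% held ACGTG on either strand. The longer TGACGTG, which contains ACGTG, occurred in 0 of the 15 windows and in 1.97% of all windows. These matches describe letters and no binding was measured here.

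All 13 probes were well above background on all 6 arrays and were tested among 27624 probes. At an adjusted p below 0.05, 6 of the 13 were higher in shXBP-1s, against 18.4% of all tested probes, and 1 was lower, against 23.3%. The 6 higher probes belonged to NLRP1, DPP9, CASP4 and CASP5, and the lower one was CASP1. The probes of NLRP3, CARD8, PYCARD, GSDMD and GSDME did not pass. None of the 13 passed with a change of at least 2-fold, against 4.90% of all tested probes in either direction. Every shXBP-1s array was above every shCtrl array for 6 member probes, against 23.9% of all tested probes, and below for 2, against 28.5%. The median log2 fold change of the member probes was -0.07, against -0.02 for all tested probes, and the median size of the change was 0.28 against 0.23. With so few probes, the counts describe these genes and carry no test of the set.

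**Figure D1:**
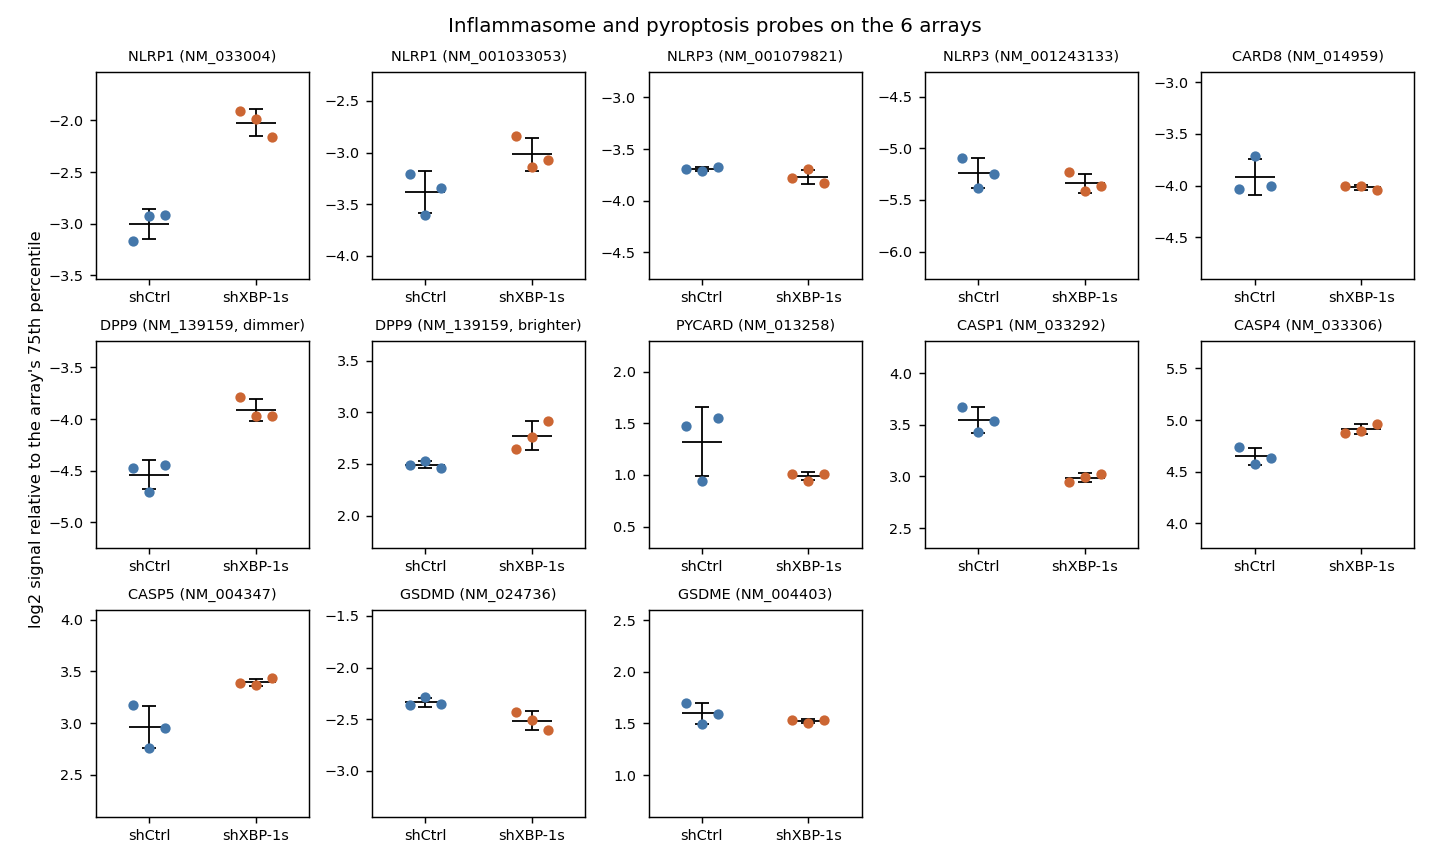
Each panel plots 1 member probe on the 6 arrays, as log2 signal relative to the 75th percentile of the array. Points are arrays in replicate order, horizontal lines are group means, error bars are the SD (n = 3) and every panel spans the same 2 log2 units. The NLRP1 probe NM_033004 shows the widest gap between groups and CASP1 lies lower in shXBP-1s, while shCtrl replicate 2 of PYCARD (0.94) lies at the level of the shXBP-1s arrays.

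NLRP1, a sensor activated when proteases cut it or when DPP9 is inhibited, gave the largest change among the members. Its probe NM_033004 was at -3.17, -2.93 and -2.92 in shCtrl and at -1.91, -1.99 and -2.16 in shXBP-1s. The groups did not overlap. The mean rose from -3.0 ± 0.14 to -2.02 ± 0.13 (SD, n = 3 each), a log2 fold change of 0.98 (SE 0.10, 95% interval 0.76 to 1.21, limma adjusted p = 1.15e-04), or 97.7% more signal.

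The second NLRP1 probe, NM_001033053, was at -3.20, -3.60 and -3.35 in shCtrl and at -2.84, -3.14 and -3.07 in shXBP-1s. The groups again did not overlap, but the closest arrays lay near each other. Its log2 fold change was 0.37 (SE 0.12, 95% interval 0.08 to 0.65, limma adjusted p = 0.0458). This call was the least stable of the 7, holding in 5 of 17 alternative settings. The adjusted p was 0.124 with shCtrl replicate 2 left out, 0.0879 with shCtrl replicate 3 left out, and 0.140, 0.0576 and 0.0807 with shXBP-1s replicates 1, 2 and 3 left out in turn, and against shCtrl replicate 1 on the same slide the change was 0.18 (adjusted p = 0.416). Within the same arrays the first NLRP1 probe gained 0.62 on the second, so the probes of this gene rose unequally. Against shCtrl replicate 1, the first probe changed by 1.15 (adjusted p = 2.91e-04). It depended on the background correction, with 0.29 (adjusted p = 0.463) under normexp, a model-based correction applied to the raw spot and local background signals, and 0.66 (adjusted p = 3.88e-04) when quantile normalization followed.

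NLRP3, the sensor of potassium efflux and many other danger signals in myeloid cells, did not pass on either probe. The probe NM_001079821 was at -3.69, -3.71 and -3.67 in shCtrl and at -3.78, -3.70 and -3.83 in shXBP-1s, and the log2 fold change was -0.08 (95% interval -0.25 to 0.10, limma adjusted p = 0.454). The probe NM_001243133 was at -5.09, -5.38 and -5.24 in shCtrl and at -5.23, -5.41 and -5.37 in shXBP-1s, with -0.10 (95% interval -0.40 to 0.20, limma adjusted p = 0.580). In both the groups overlapped.

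CARD8, a sensor built like the C-terminal part of NLRP1, was at -4.03, -3.71 and -4.00 in shCtrl and at -4.00, -4.01 and -4.05 in shXBP-1s. Apart from shCtrl replicate 2 the arrays lay together. The log2 fold change was -0.11 (95% interval -0.35 to 0.14, limma adjusted p = 0.460).

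DPP9, the dipeptidyl peptidase that restrains NLRP1 and CARD8, rose on both of its probes, which carry the same accession, NM_139159. The brighter probe was at 2.49, 2.53 and 2.46 in shCtrl and at 2.64, 2.76 and 2.92 in shXBP-1s, without overlap, and the log2 fold change was 0.28 (SE 0.07, 95% interval 0.11 to 0.44, limma adjusted p = 0.0149). The dimmer probe was at -4.47, -4.70 and -4.44 in shCtrl and at -3.79, -3.97 and -3.97 in shXBP-1s, also without overlap, with 0.63 (SE 0.11, 95% interval 0.38 to 0.88, limma adjusted p = 0.00223). In percent, the signal was 21.3% higher on the brighter and 54.6% higher on the dimmer probe. Against shCtrl replicate 1 the brighter probe still changed by 0.28 but did not pass (adjusted p = 0.0843), nor did it without shCtrl replicate 3 (0.26, adjusted p = 0.0530), while the dimmer one passed with 0.56 (adjusted p = 0.0261). Under normexp the dimmer probe turned to -0.52 (adjusted p = 0.497). DPP8, the close relative that also binds NLRP1, went the other way. Its probe was at 2.56, 2.69 and 2.59 in shCtrl and at 2.13, 2.12 and 2.22 in shXBP-1s and fell by 0.46 on the log2 scale (SE 0.05, limma adjusted p = 2.72e-04). The log2 ratio of DPP8 to the brighter DPP9 probe shifted by -0.74. This ratio was not planned, and it had to separate the groups, since both probes did so in opposite directions.

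PYCARD encodes ASC, the adaptor that links sensors with a pyrin domain to caspase 1. Its probe was at 1.48, 0.94 and 1.55 in shCtrl and at 1.01, 0.94 and 1.01 in shXBP-1s. shCtrl replicate 2 lay with the shXBP-1s arrays, and the other 2 control arrays were higher. The log2 fold change was -0.33 (SE 0.14, limma adjusted p = 0.103) with all arrays and -0.52 (adjusted p = 4.09e-04) without shCtrl replicate 2. It also passed under normexp (-0.24, adjusted p = 0.0279), although relative to the median of all tested probes it was then 0.18.

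The inflammatory caspases did not move together: caspase 1 RNA fell and the RNAs of caspases 4 and 5 rose. CASP1 was at 3.67, 3.43 and 3.54 in shCtrl and at 2.95, 3.0 and 3.03 in shXBP-1s. The groups were separated by more than the spread of either. The mean fell from 3.55 ± 0.12 to 2.99 ± 0.04 (SD, n = 3 each), a log2 fold change of -0.56 (SE 0.07, 95% interval -0.71 to -0.40, limma adjusted p = 3.39e-04), or -32.0% in signal. CASP1 was the only member probe that passed in all 17 alternatives, with log2 fold changes from -0.69 to -0.43, although under normexp, which shifted the median of all tested probes to -0.41, its change relative to that median was -0.01.

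CASP4, the lipopolysaccharide sensor expressed in many epithelia, was at 4.74, 4.58 and 4.63 in shCtrl and at 4.87, 4.90 and 4.96 in shXBP-1s. No shXBP-1s array was as low as any control. The log2 fold change was 0.26 (SE 0.06, 95% interval 0.13 to 0.40, limma adjusted p = 0.00780), and under normexp it was 0.38 and did not pass (adjusted p = 0.245). CASP5, its inducible relative, was at 3.17, 2.76 and 2.96 in shCtrl and at 3.39, 3.37 and 3.43 in shXBP-1s, with the shXBP-1s arrays again all above and closer to each other than the controls. Its log2 fold change was 0.43 (SE 0.10, 95% interval 0.21 to 0.65, limma adjusted p = 0.00742), or 35.1% more signal. Against shCtrl replicate 1 alone the changes were 0.17 for CASP4 (adjusted p = 0.118) and 0.23 for CASP5 (adjusted p = 0.0915), neither of which passed, whereas CASP1 did with -0.69 (adjusted p = 4.87e-04).

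Within arrays, the log2 ratio of CASP5 to CASP1 shifted by 0.99 and that of CASP4 to CASP1 by 0.82. CASP5 gained 0.17 on CASP4, with an SD of 0.13 among the shCtrl arrays and 0.03 among the shXBP-1s arrays. Against shCtrl replicate 1 alone this gain was smaller, since CASP5 changed by 0.23 and CASP4 by 0.17. The ratios to CASP1 had to separate the groups, since each probe already did so and CASP1 moved the other way. These ratios were chosen after the values were seen. The 3 caspase genes neighbour each other on chromosome 11. No probe mapped to the related symbols CARD16 and CARD17, while CARD18 was not well above background on any array. The reference lists the CARD17 locus as the pseudogene CARD17P, and that name was not looked up. Whether the caspase probes share signal with these relatives was not tested.

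**Figure D2:**
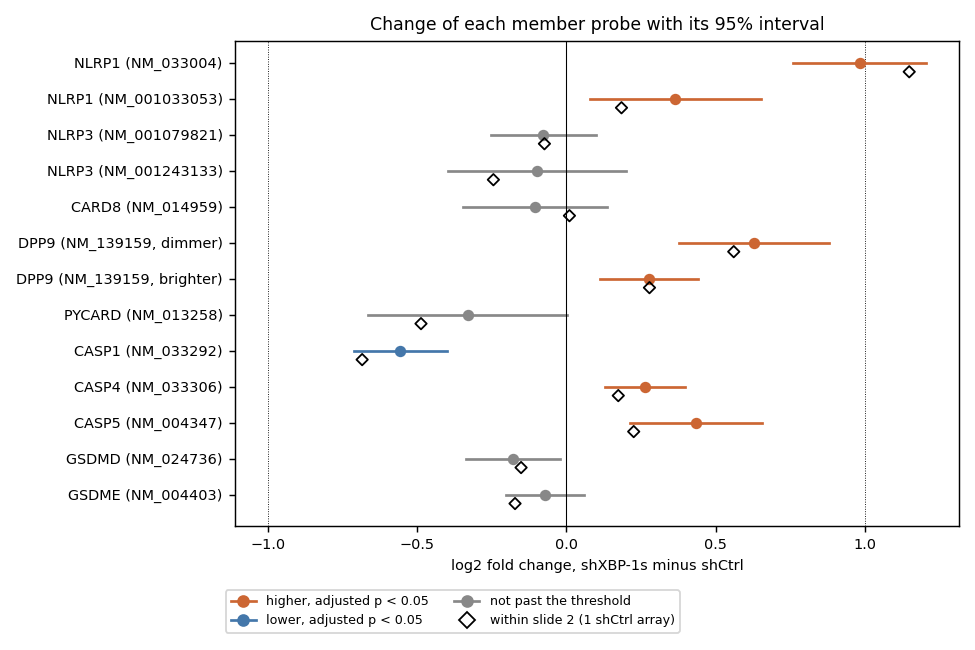
Log2 fold change of each member probe, shXBP-1s minus shCtrl, with its 95% interval from limma. Colours mark probes higher, lower or not past an adjusted p of 0.05, and dotted lines mark 2-fold. Open diamonds give the difference within slide 2 (slides inferred from scan dates), which holds 1 shCtrl array. The NLRP1 probe NM_033004 lies at 0.98 and CASP1 at -0.56, and the diamonds of CASP4 and CASP5 lie closer to 0 than their points.

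Of the gasdermins, neither member passed. GSDMD, the main executor of pyroptosis, was at -2.36, -2.28 and -2.36 in shCtrl and at -2.43, -2.50 and -2.60 in shXBP-1s. All shXBP-1s arrays were below all shCtrl arrays, with a log2 fold change of -0.18 (SE 0.07, 95% interval -0.34 to -0.02) and a limma adjusted p of 0.0661, which was 0.0477 without shXBP-1s replicate 1. GSDME, a pore-forming relative of gasdermin D, was at 1.70, 1.5 and 1.60 in shCtrl and at 1.54, 1.51 and 1.53 in shXBP-1s. The shXBP-1s arrays lay inside the range of the controls, with a log2 fold change of -0.07 (95% interval -0.20 to 0.06, limma adjusted p = 0.352).

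Another 38 genes of the pathway were followed as 4 lists, each gene by its brightest tested probe. Of these, 35 had a probe under the listed symbol and 31 were tested. Of the tested genes, 8 were higher, against 18.9% of all tested genes, 11 were lower, against 27.5%, and 12 did not pass. Their median log2 fold change was -0.04, as was that of all tested genes. GSDMC alone passed with at least 2-fold in this setting, but its probe entered the test only through its shXBP-1s arrays. Its controls lay near the background, and it did not pass under normexp. With only probes well above background on all 6 arrays, which leaves GSDMC out, 7 genes were higher and 11 were lower.

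The cytokines cut by caspase 1 both rose. IL1B was at 5.12, 5.11 and 5.11 in shCtrl and at 5.34, 5.48 and 5.65 in shXBP-1s, and the log2 fold change was 0.38 (SE 0.08, limma adjusted p = 0.00538). IL18 was at -0.08, -0.13 and -0.12 in shCtrl and at 0.36, 0.44 and 0.46 in shXBP-1s, with 0.53 (SE 0.05, limma adjusted p = 7.05e-05). Neither pair of groups overlapped. IL1B did not pass under normexp (adjusted p = 0.130).

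Among 9 other sensor genes, 5 were tested, 1 was higher and 1 was lower, against 18.9% and 27.5% of all tested genes. AIM2, a sensor of cytosolic DNA, was at -0.65, -0.57 and -0.58 in shCtrl and at 0.05, 0.10 and 0.20 in shXBP-1s and rose by 0.72 (SE 0.06, limma adjusted p = 3.19e-05), passing in all 17 alternatives. NAIP, which recognises bacterial flagellin and secretion needles, fell by 0.40. NLRP2, NLRP7 and MEFV did not pass.

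Of 15 tested regulators and upstream factors, 3 were higher, 6 were lower and 6 did not pass, with a median of -0.19. Of all tested genes, 18.9% were higher and 27.5% were lower, with a median of -0.04. PANX1, a channel that releases ATP, rose by 0.84, and SERPINB1, an inhibitor of inflammatory proteases, rose by 0.30, as did IRF2 (0.40), a transcription factor. DPP8, PYDC1, TXNIP, SERPINB9, GBP2 and GBP5 fell. TXNIP, a thioredoxin-binding protein, fell by 0.64 and SERPINB9, a granzyme B inhibitor, by 0.57 on the log2 scale.

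In the list of other gasdermins, cell death caspases and membrane factors, 2 of 9 were higher and 4 were lower, against 18.9% and 27.5% of all tested genes. GSDMC is among the 2 higher genes. GSDMC was at -6.63, -6.60 and -7.00 in shCtrl and at -3.45, -3.34 and -3.39 in shXBP-1s, a log2 difference in means of 3.35 that is given as a description. In shCtrl, 2 of 3 arrays measured it well above background, and the probe entered the test only through its shXBP-1s arrays, so that the size of the difference depends on a control level near the background. Under normexp the change was 0.24 (SE 0.58, limma adjusted p = 0.75), and it was 0.96 when quantile normalization followed. GSDMB fell by 0.20 (SE 0.05, limma adjusted p = 0.0137) and did not pass against shCtrl replicate 1 (-0.18, adjusted p = 0.0986), nor with shCtrl replicate 3 (adjusted p = 0.0530) or shXBP-1s replicate 2 (adjusted p = 0.0784) left out. CASP8, which starts apoptosis and can also cut gasdermin D, was at 0.03 (adjusted p = 0.652). PJVK and NINJ1, a protein of plasma membrane rupture, also fell, NINJ1 by 0.40.

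**Figure D3:**
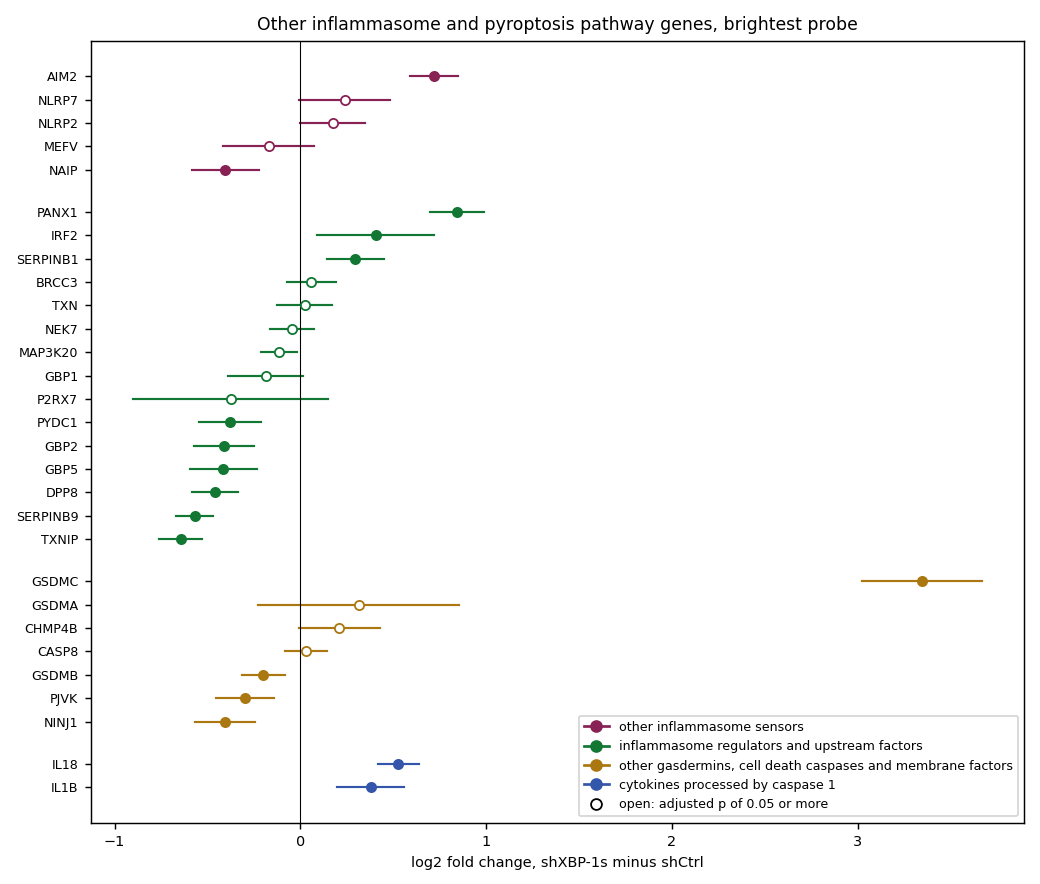
Log2 fold change, shXBP-1s minus shCtrl, of 29 of the 31 tested pathway genes outside the member set, each by its brightest probe with its 95% interval and coloured by list; open points have an adjusted p of 0.05 or more. GSDMC lies at 3.35, against controls near the background of which 2 of 3 measured it. Its change was 0.24 under normexp and 0.96 when quantile normalization followed. IL1B and IL18 lie above 0, and the regulators spread from TXNIP at -0.64 to PANX1 at 0.84.

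**Figure D4:**
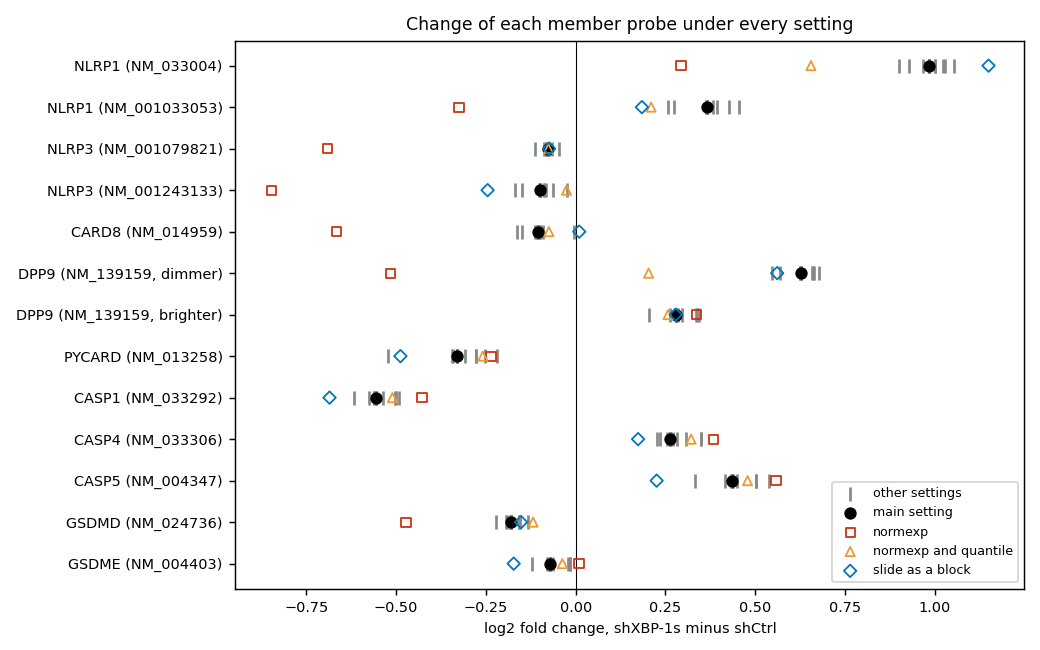
Log2 fold change of each member probe, shXBP-1s minus shCtrl, in the main setting (black) and under each alternative, with normexp background correction, normexp with quantile normalization and the slide as a block drawn as separate symbols. CASP1 stays between -0.69 and -0.43, whereas the dimmer DPP9 probe and the NLRP1 probe NM_001033053 cross 0 under normexp (-0.52 and -0.32).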

How the data were processed

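RNA of 3 shXBP-1s and 3 shCtrl CAL-27 samples was measured on 1-colour Agilent arrays (design annotated on hg19). The authors deposited scanner output of Agilent Feature Extraction 11.0.1.1, with spot intensity background-subtracted but not normalized between arrays, and a table of log2 values with equal quartiles on the 6 arrays, used here only as an alternative. The submitters' processing notes name RMA without a role, and the labels describe a NimbleGen labelling procedure. The study's methods give no array normalization.

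From the intensities, log2 minus the 75th percentile of the array over non-control spots was taken. Flagged spots (230 to 377 of 44495 per array) were dropped and the spots of a probe averaged. Of 34127 probes, 19 were left out, and 25767 had a symbol through RefSeq. Over 50% of the spots of a probe had to be well above background for the probe to count as such on an array. Those that did so on all 3 arrays of at least 1 group, 27624 in all, were tested with limma 3.58.1 in R 4.3.3 (lmFit, eBayes with trend), 2-sided, with Benjamini-Hochberg adjustment over all tested probes. Between 82.1% and 84.8% of spots were well above background and none was saturated. The number of arrays limits the precision, and the smallest exact permutation p for 3 against 3 is 0.1. The fit was tested on simulated data with independent noise and few changed probes. That simulation held no slide effect or shared culture, so it does not check their part in the calls.

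The 10 genes, the pathway and marker lists and the rule for named genes (all members, XBP1, pathway genes with at least 2-fold changes, and IL1B, IL18, GSDMB, GSDMC, CASP8, AIM2 and DPP8) were chosen with earlier results of these data known. Other pathway genes given with values were chosen after their values were seen. Alternatives were normexp (offset 50) with and without quantile normalization, the deposited log2 table, quantile normalization, and a stricter and no filter on dim probes. Further ones were the methods' t-test, an untrended limma fit, the replicate number or slide as a block, and leaving out each array. The pathway counts were also made on the mean over the probes of each gene. Alternatives for the named pathway genes were added after seeing the data. Slides were inferred from the scan dates of the arrays. With the slide as a block, the change equals the shXBP-1s mean minus shCtrl replicate 1. Protein sequences were not analysed here, and the values of some pathway genes that enter the counts are not reported here.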

Additional observations from a re-analysis of the deposited data

How the results depend on the processing

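Against 6 member probes higher, 2 were higher under normexp, 3 by the methods' t-test with adjustment, which lost CASP5 (adjusted p = 0.0630), the brighter DPP9 probe (adjusted p = 0.0740) and the NLRP1 probe NM_001033053 (adjusted p = 0.146), and 2 with the slide as a block. Against 1 member probe lower, 2 were lower under normexp and by the unadjusted t-test, and leaving out 1 array gave 1 to 2. No member probe was higher by at least 2-fold, but 1 was, the NLRP1 probe NM_033004, with the slide as a block, under quantile normalization and on the log2 table of the authors, and leaving out 1 array gave 0 to 1. Against 11 pathway genes lower, the count under normexp was 3. The direction turned under normexp for the NLRP1 probe NM_001033053 (-0.32), the dimmer DPP9 probe (-0.52), GSDME (0.0091) and CASP8 (-0.0065), and with the slide as a block for CARD8 (0.0099) and CASP8 (-0.036). Under normexp the median change over all probes tested was -0.41 (log2). Relative to that median, the NLRP1 probes NM_033004 and NM_001033053 were at 0.71 and 0.09, the dimmer DPP9 probe at -0.10 and GSDME at 0.42. These relative values and the cause of the lost calls were not tested.

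Deviations of same-numbered arrays correlated at -0.016, 0.117 and -0.116, and those of differently numbered arrays at -0.125 to 0.117. These values give no sign of pairing by replicate number, but they cannot show that the samples were unpaired. With the replicate number as a block, 2 member probes were lower, the second being PYCARD (adjusted p = 0.0400). Over the single member probes, 193 values under an alternative kept their direction and side of the threshold, 21 no longer passed and 5 newly passed. Direction turned in 4, of which 2 are among the 21. Dim probes such as GSDMC are limited by background.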

Other observations

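Squamous keratins were higher in shXBP-1s. KRT5 rose by 1.43, KRT14 by 1.58, KRT17 by 1.53 and TP63, a transcription factor of basal cells, by 0.93 on the log2 scale (limma, adjusted p at most 7.57e-05 each), whereas EPCAM (0.01) and CDH1 (0.13) did not pass. The part of these changes in the inflammasome results was not tested.

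Probes of 1 gene disagreed for 2 upstream factors, in values chosen after they were seen. For BRCC3, which deubiquitinates NLRP3, the probes changed by 0.06, 0.01 and 0.31, and only the last passed (limma adjusted p = 0.00135). For MAP3K20, the kinase that activates NLRP1 after ribotoxic stress, the brightest probe, NM_133646, changed by -0.11 (limma adjusted p = 0.0616). The others, which both carry NM_016653, rose by 0.48 (limma adjusted p = 0.00228) and 0.42 (limma adjusted p = 6.34e-04). Whether these probes read different transcripts was not tested, and the counts use only the brightest. With the mean over the probes of each gene instead, 10 pathway genes were higher and 11 were lower. The share of all genes in that setting is not reported here.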
